A study of Homo sapiens with 6 samples.

Results

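The snAR RNAs, a family of small non-coding RNAs, of HEK293T cells were examined after knockdown of La, an RNA-binding protein whose gene is SSB. The members were the 18 windows of the deposited count table whose label was snAR, of 53603 windows in all. Each window was 400 bp wide, and its value was the number of small RNA reads in it. All 18 lay on chromosome 19 (GRCh38), and each held exactly 1 RefSeq snAR gene. The 11 windows above 50 Mb are called the distal block (positions 50092277 to 50139386). They hold SNAR-A4 to SNAR-A11, SNAR-A14, SNAR-B1 and SNAR-B2, which were treated as near-identical copies that may share reads. Of the other 7 windows, 6 formed a proximal cluster (positions 47907611 to 47950545, with SNAR-A12, SNAR-A1, SNAR-A3, SNAR-A2, SNAR-A13 and SNAR-C3), and 1 lay beside the gonadotropin gene CGB1 (SNAR-G1).

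HEK293T is a human embryonic kidney cell line that carries the SV40 large T antigen. The control arm received a control siRNA and the La knockdown arm an siRNA to La, each at 150 nM for 48 h, with 3 biological replicates per arm, and both were otherwise grown alike. The cells were of 1 line, and the siRNA sequences were not given in the sources used here. Small RNA was treated with a phosphatase and then a kinase before the libraries were made.

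snAR RNAs are short, structured non-coding RNAs made by RNA polymerase III. They are known to be abundant in testis and in many transformed cell lines. Their genes arose from the left monomer of an Alu element and lie mostly in tandem arrays on chromosome 19. La binds the run of uridines that ends new RNA polymerase III transcripts and is known to protect that end from exonucleases.

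The reference tables used here hold the sequence of 2 family members, SNAR-G1 and SNAR-G2, because these genes lie in the promoter stretches of CGB1 and CGB2. They are shown because they carry a run of T at or near the 3′ end of the gene, where the uridine tail is encoded, and because SNAR-G1 is a member. Both are RefSeq sequence of GRCh38.p14, written 5′ to 3′ against the direction of the neighbouring gonadotropin gene. SNAR-G1 is bases chr19:49037020-49037145 on the plus strand, 126 of its 128 bases. The missing bases are the last ones at its 3′ end, so the printed run of T is not shown to end the gene. SNAR-G2 is all 119 bases of chr19:49031669-49031787 on the minus strand and has no snAR window. Capitals mark GTTCGA, the core of the internal B box promoter element, and runs of TTTTT.
SNAR-G1: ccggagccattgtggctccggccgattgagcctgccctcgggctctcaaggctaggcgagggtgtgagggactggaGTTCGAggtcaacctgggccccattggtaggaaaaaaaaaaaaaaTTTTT
SNAR-G2: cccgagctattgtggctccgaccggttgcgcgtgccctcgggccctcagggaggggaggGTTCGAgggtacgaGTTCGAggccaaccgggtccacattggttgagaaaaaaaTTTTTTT
The sequences were identical at 99 of 127 aligned positions (78.0%). Searched on both strands, GTTCGA occurred in 1.05% of 35116 RefSeq promoter stretches of 126 bases, and TTTTT in 25.4%. Neither stretch overlapped a GENCODE release 29 exon. Sequences of the other snAR genes were not analysed here.

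Most steps along the gene arrays were of like length. From one RefSeq snAR gene start to the next in the distal block, 7 of 10 steps measured 5328 to 5373 bp and 3 measured 3059 to 3065 bp. The step from SNAR-B2 (gene start 50139118) to SNAR-D (gene start 50140202), which is shorter, was not among these. In the proximal cluster, which also holds SNAR-C genes, 8 of 9 steps measured 5350 to 5386 bp. The 9 SNAR-A genes of the distal block began 212 bases into their window and ended 67 bases before its end. The SNAR-A genes of the proximal cluster had the mirrored layout, with 67 bases before the gene and 211 or 212 after it. Of 28 RefSeq snAR genes, 10 had no snAR window and no window of another label over them. These were SNAR-C1, SNAR-C2, SNAR-C4, SNAR-C5, SNAR-D, SNAR-E, SNAR-F, SNAR-G2, SNAR-H and SNAR-I. No window of another label overlapped a snAR window.

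Libraries held from 3066299 to 4105806 counts. Of the windows at starts of the targeted gene SSB, PCG_40419 had control counts of 4, 3 and 3 and knockdown counts of 1, 0 and 0. The adjoining PCG_12982 had control counts of 0, 0 and 1 and knockdown counts of 0, 2 and 0. Such windows count small RNA at the promoter, not SSB mRNA, so the degree of knockdown was not measured. Cell type markers were not tested, because windows at start sites give no mRNA level.

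snAR reads were lower in every La knockdown library than in any control library. The distal block, summed over its 11 windows, had 31854, 15685 and 16684 counts in control replicates 1, 2 and 3, and 4400, 2034 and 5032 in La knockdown replicates 1, 2 and 3. Scaled to library size with TMM factors, these were 8315, 4638 and 4324 CPM (scaled counts per 1e6 counts) and 1578, 599 and 1585 CPM. Control replicate 1 was the highest library and La knockdown replicate 2 the lowest, and the arms did not overlap. The mean went from 5759 ± 2219 to 1254 ± 567 CPM (SD, n = 3 per arm), a ratio of means of 4.59.

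Fitted as 1 feature beside all other windows, the distal block fell by 2.22 on the log2 scale (SE 0.40, adjusted p = 0.0142, edgeR's quasi-likelihood test with Benjamini-Hochberg adjustment). In that fit 4.17% of 1054 features were called lower at an adjusted p under 0.05. As a share of all counts of a library, the distal block went from 0.578% ± 0.171 to 0.121% ± 0.0536 (SD, n = 3 per arm, two-sided exact permutation p = 0.1, the smallest that 3 against 3 libraries allow). The direction was the same in all 18 alternative fits, from -2.48 to -1.86. Some of these were bound to lie close to the first fit. The mean of the copies and the block without SNAR-B1 and SNAR-B2 use almost the same reads. The fit on all 18 windows as 1 feature contains the block. The call was lost only without La knockdown replicate 1, with a log2 fold change of -2.42 and an adjusted p of 0.146, in a fit where no window of any class was called. In sequencing of pooled cells, fewer cells with snAR RNA and less of it per cell cannot be told apart.

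**Figure D1:**
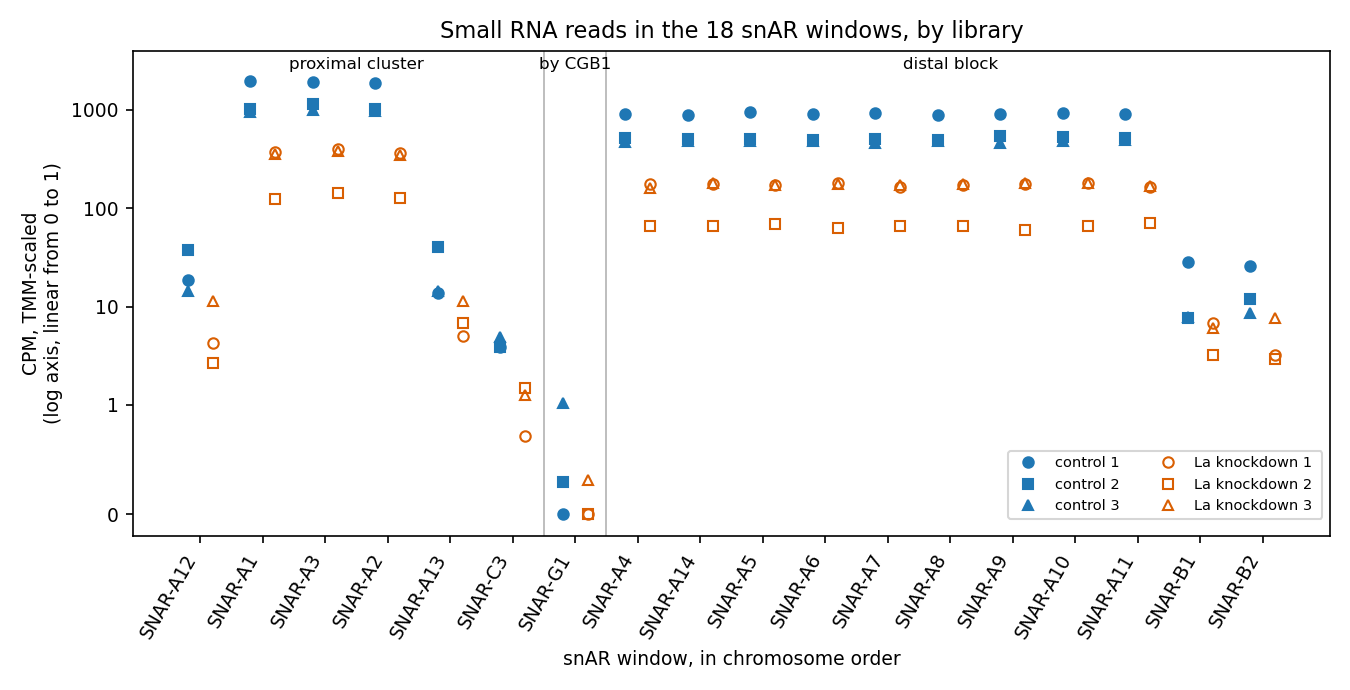
Scaled CPM (TMM factors, log axis that is linear from 0 to 1) of the 18 snAR windows in chromosome order, 1 point per library. Filled blue points are control and open orange points La knockdown libraries. In the 17 windows other than SNAR-G1, every La knockdown point lies below every control point.

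Fitted window by window, 17 of the 18 snAR windows passed the filter on low counts and 13 of these were lower in the La knockdown arm at an adjusted p under 0.05. None was higher, with or without adjustment. Over all 1064 windows tested, 4.79% were called lower and 0.658% higher. That split differed between fits. With upper quartile factors 3.38% were called lower and 5.45% higher, and with RLE factors 4.61% and 0.658%. With DESeq2, which differs in its test as well, 7.14% were called lower and 2.16% higher. In each of these fits the snAR windows called were all lower (12, 12 and 15). With TMM factors, all 17 tested snAR windows had an unadjusted p under 0.05, as did 14.2% of all windows in the lower direction. The median log2 fold change was -2.18 over the tested snAR windows and -0.05 over all windows tested. In scaled CPM the arms did not overlap in 17 of 17 tested snAR windows, and 17.9% of all windows tested had every La knockdown library below every control library. SNAR-A12, SNAR-B2 and SNAR-C3 had enough reads for the filter in the 3 control libraries but not in all 3 La knockdown libraries, so these 3 entered the test through the arm in which they were higher. The 13 windows called were the 9 SNAR-A copies of the distal block, SNAR-A1, SNAR-A2, SNAR-A3 and SNAR-C3. The 9 copies may share reads, so their calls are not separate results. With the distal block as 1 feature, that feature and 4 of the 6 other tested snAR windows were called lower. Over all 1054 features of that fit, 4.17% were called lower. Without La knockdown replicate 1 none of the 13 calls remained. In that fit the log2 fold changes of the 17 spanned -2.49 to -1.35, with adjusted p from 0.121 to 0.327, and 15 had an unadjusted p under 0.05. It called 0 of 1121 windows in either direction, against 103 lower at an unadjusted p under 0.05.

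The 9 SNAR-A copies of the distal block gave almost the same values. Their log2 fold changes ran from -2.25 to -2.16 with standard errors of 0.39 to 0.43, and their adjusted p from 0.0148 to 0.0165. SNAR-A5 and SNAR-A10 had the highest mean counts of the block. SNAR-A5 had control counts of 3690, 1718 and 1884 and knockdown counts of 485, 236 and 544. SNAR-A10 had 3569, 1796 and 1847 against 502, 223 and 580. In both windows control replicate 1 held about as many reads as the other control libraries together, and the arms did not overlap.

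Within a library the 9 copies differed by about as much as counting noise. In control replicate 1 they ranged from 3437 to 3690 counts, a coefficient of variation of 2.23% where counting alone gives 1.69%. In La knockdown replicate 2 they ranged from 203 to 239 counts, 4.70% where counting alone gives 6.69%. The variance of the 9 counts divided by their mean lay between 0.494 and 1.74 over the 6 libraries. The handling of reads with several positions was not given in the sources used here, so the reads of single copies cannot be told apart.

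**Figure D2:**
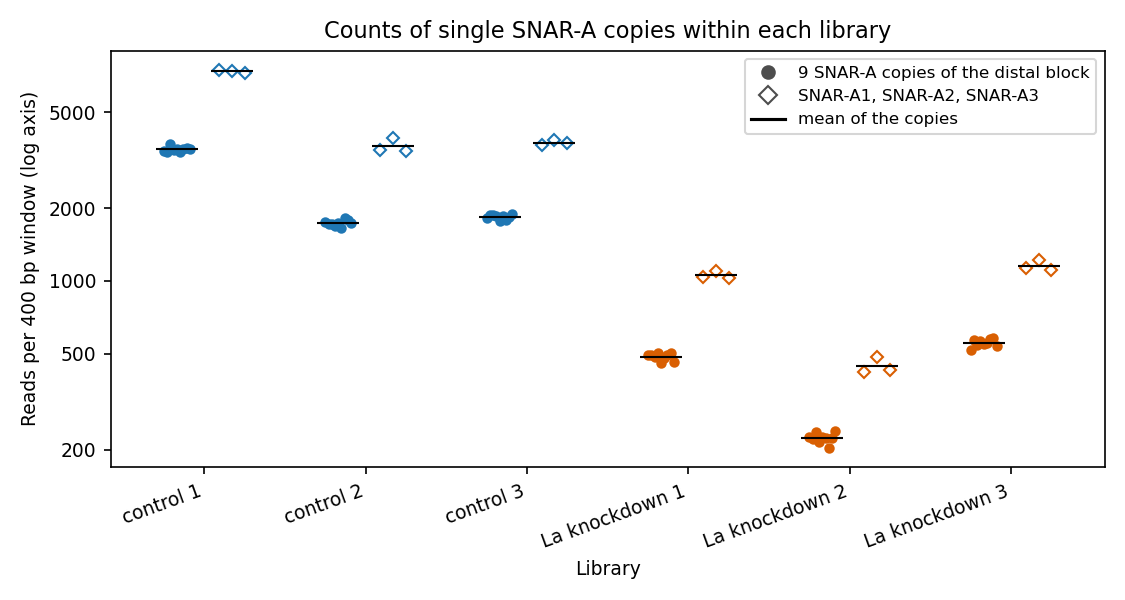
Counts per 400 bp window (log axis) of each of the 9 SNAR-A copies of the distal block (filled circles) and of SNAR-A1, SNAR-A2 and SNAR-A3 (open diamonds) in the 6 libraries, blue for control and orange for La knockdown. Black bars are the means of the copies. The diamonds lie about 2.1 times as high as the circles in both arms.

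SNAR-A1, SNAR-A3 and SNAR-A2 of the proximal cluster were the most strongly read members. SNAR-A3 (window chr19:47923712-47924111) had control counts of 7401, 3910 and 3827 and knockdown counts of 1104, 482 and 1220. Its mean was 1360 ± 502 CPM in control and 307 ± 143 CPM in knockdown libraries (SD, n = 3). SNAR-A3 fell by 2.15 on the log2 scale (SE 0.41, edgeR adjusted p = 0.0156). SNAR-A1 had 7513, 3496 and 3664 against 1038, 420 and 1128 counts and fell by 2.21 (SE 0.44). SNAR-A2 had 7259, 3441 and 3739 against 1027, 428 and 1107 counts and fell by 2.20 (SE 0.43). As in the distal block, control replicate 1 was highest and La knockdown replicate 2 lowest, and no window had overlapping arms.

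Per window, the mean of these 3 was 2.07 ± 0.0391 times that of the 9 distal SNAR-A copies in control and 2.08 ± 0.0962 times in knockdown libraries (SD over 3 libraries, exact permutation p = 1 for the difference of log2 ratios). All windows are 400 bp wide and the genes in them 121 or 122 bases long. The distal block held 58.9% ± 0.501 of all snAR counts in control and 58.8% ± 0.946 in La knockdown libraries, and SNAR-A1, SNAR-A2 and SNAR-A3 together 40.5% ± 0.448 and 40.4% ± 1.30 (SD, n = 3 each). SNAR-A12, SNAR-A13, SNAR-C3 and SNAR-G1 held the rest. Whether SNAR-A1, SNAR-A2 and SNAR-A3 share reads with the distal copies is not known. These ratios and shares therefore cannot show whether the 2 places changed alike.

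Against the distal block, the log2 ratio of SNAR-A1 changed by -0.03 between the arms, that of SNAR-A2 by -0.02 and that of SNAR-A3 by 0.04. In control libraries these ratios were -2.15 ± 0.0543, -2.16 ± 0.0275 and -2.08 ± 0.0646, and in knockdown libraries -2.17 ± 0.0965, -2.18 ± 0.0747 and -2.04 ± 0.0412 (SD, n = 3). For SNAR-A12, SNAR-A13 and SNAR-C3 the changes were 0.21, 0.84 and 0.50, with SDs between libraries of an arm from 0.642 to 1.19. None of the 6 differences was larger than the spread between libraries (exact permutation p from 0.4 to 0.9, adjusted over the 6 windows 0.9 each, smallest possible p 0.1). Reads shared with the distal block would hold such ratios steady, and sharing was not tested.

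SNAR-A12 and SNAR-A13, at the edges of the SNAR-A genes of the proximal cluster, were read far less than their neighbours. SNAR-A12 had control counts of 72, 127 and 56 and knockdown counts of 12, 9 and 36, or -1.94 in log2 fold change (SE 0.54, edgeR adjusted p = 0.0712). SNAR-A13 had 53, 136 and 55 against 14, 23 and 36 counts, or -1.55 in log2 fold change (SE 0.49, edgeR adjusted p = 0.103). Neither passed the threshold. In these 2 windows control replicate 2 was the highest library, whereas control replicate 1 was in SNAR-A1, SNAR-A2 and SNAR-A3. Together they held 0.564%, 2.42% and 0.988% as many reads as those 3 windows in control libraries, and 0.820%, 2.41% and 2.08% in knockdown libraries. Without control replicate 2 the log2 fold change of SNAR-A13 was -0.87 (edgeR adjusted p = 0.284) and that of SNAR-A12 was -1.46 (edgeR adjusted p = 0.196). SNAR-A12 passed the threshold without La knockdown replicate 3 (log2 fold change -2.84, edgeR adjusted p = 0.0175) or without control replicate 3 (-2.20, edgeR adjusted p = 0.0488). With DESeq2 or no filter, SNAR-A12 and SNAR-A13 were both called lower.

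SNAR-B1 and SNAR-B2, at the far end of the distal block, were the least read windows of the block. SNAR-B1 (window chr19:50133614-50134013) had control counts of 109, 26 and 30 and knockdown counts of 19, 11 and 19. SNAR-B2 (window chr19:50138987-50139386) had 99, 40 and 33 against 9, 10 and 24 counts. Their log2 fold changes were -1.46 (SE 0.56, edgeR adjusted p = 0.157) and -1.74 (SE 0.52, edgeR adjusted p = 0.0841), so neither was called. Without control replicate 1 the log2 fold changes were -0.55 and -1.14 (edgeR adjusted p = 0.574 and 0.289). SNAR-B2 was called without La knockdown replicate 3 (-2.39, edgeR adjusted p = 0.0344), without control replicate 3 (-2.03, edgeR adjusted p = 0.0488) and with DESeq2. It was also called with scaling by library size alone (edgeR adjusted p = 0.0441) and with a replicate block (edgeR adjusted p = 0.00792). Both SNAR-B1 and SNAR-B2 were called without the filter on low counts. Relative to the 9 SNAR-A copies of the block, the pair held 0.486% ± 0.150 as many reads in control and 0.849% ± 0.202 in knockdown libraries (SD, n = 3; p = 0.2 by exact permutation of the log2 ratio). With the pair left out the distal block also changed by -2.22, as the pair holds few of its reads.

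SNAR-C3 was called on few reads. Its window (chr19:47950146-47950545) had control counts of 15, 13 and 19 and knockdown counts of 2, 5 and 4, and fell by 1.82 on the log2 scale (SE 0.44, edgeR adjusted p = 0.0390). The control libraries lay close together at 4.23 ± 0.604 CPM (SD, n = 3), unlike those of the SNAR-A windows. The call was lost in each of the 6 fits that left out 1 library (edgeR adjusted p from 0.0619 to 0.204) and with RLE factors, upper quartile factors, DESeq2 or no filter (adjusted p from 0.0518 to 0.0795).

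SNAR-G1, whose sequence is given above, had control counts of 0, 1 and 4 and knockdown counts of 0, 0 and 1. It did not pass the filter on low counts, and in the fit without a filter it was not called (edgeR adjusted p = 0.581). A count of 0 allows up to 3 counts, so a difference between the arms was not detectable at this depth. Such limits cover counting error only.

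**Figure D3:**
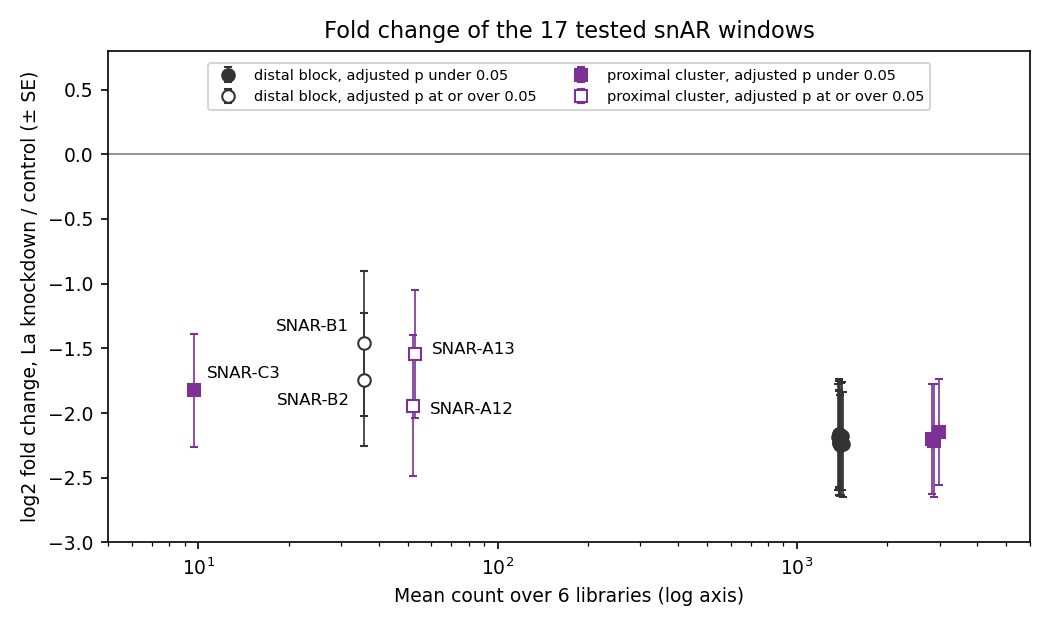
log2 fold change of La knockdown over control (± SE, from the edgeR fit) against the mean count over 6 libraries (log axis) for the 17 tested snAR windows. Circles are windows of the distal block and squares those of the proximal cluster, filled where the adjusted p is under 0.05. The strongly read windows lie together near -2.2, and the 5 weakly read windows lie between -1.94 and -1.46 with standard errors from 0.44 to 0.56.

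By the authors' deposited table, lower calls numbered 16 of the 18 snAR windows at an adjusted p under 0.05, while 0.149% of its 53603 windows were called lower. That share covers every window, without a filter on low counts. The fit here without a filter called 16 snAR windows lower, and 0.476% of 21830 windows. The authors' calls included all 11 windows of the distal block, which in their table spanned -2.47 for SNAR-A11 to -1.70 for SNAR-B1 on the log2 scale. The authors' table also called SNAR-A12 (-2.15, adjusted p 0.000244) and SNAR-A13 (-1.79, adjusted p 0.00805), which were not called here with the filter. The same held for SNAR-B1 (adjusted p 0.0464 in the authors' table) and SNAR-B2 (adjusted p 0.00497) of the distal block. The authors' table did not call SNAR-C3 (-2.10, adjusted p 0.347), which was called here with the filter on a mean of 9.67 counts.

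The distal block was set against 3 other classes of short RNA polymerase III transcripts, as the log2 ratio of summed counts in each library. Vault RNAs are part of the vault particle and bind La. Against the 3 vault RNA windows the ratio was -0.660 ± 0.370 in control and -0.732 ± 0.459 in knockdown libraries (SD, n = 3), a change of -0.07 (exact permutation p = 0.9, adjusted over the 3 classes 0.9). The arms overlapped, and a p of this size does not show that the classes changed alike. Without the vault RNA window with the most counts the change was -0.42 (exact permutation p = 0.2). Leaving out 1 library moved the change to values from -0.26 to 0.18.

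Against Y RNA, which binds La and the Ro60 protein, and against tRNA the ratio was lower in the La knockdown arm. Against the 73 Y RNA windows the ratio went from -2.55 ± 0.481 to -4.80 ± 0.532 (SD, n = 3), a change of -2.25. Against the 534 tRNA windows, which cover tRNA genes and their mature products, it went from -4.79 ± 0.407 to -6.69 ± 0.631, a change of -1.90. In both comparisons every La knockdown library lay below every control library (exact permutation p = 0.1, the smallest possible, adjusted 0.15). As shares of all counts, in control and then knockdown libraries, Y RNA windows held 3.32% ± 0.289 and 3.14% ± 0.599 (SD, n = 3). Vault RNA windows held 0.893% ± 0.0934 and 0.187% ± 0.0407, and tRNA windows 15.6% ± 0.351 and 11.5% ± 1.57.

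**Figure D4:**
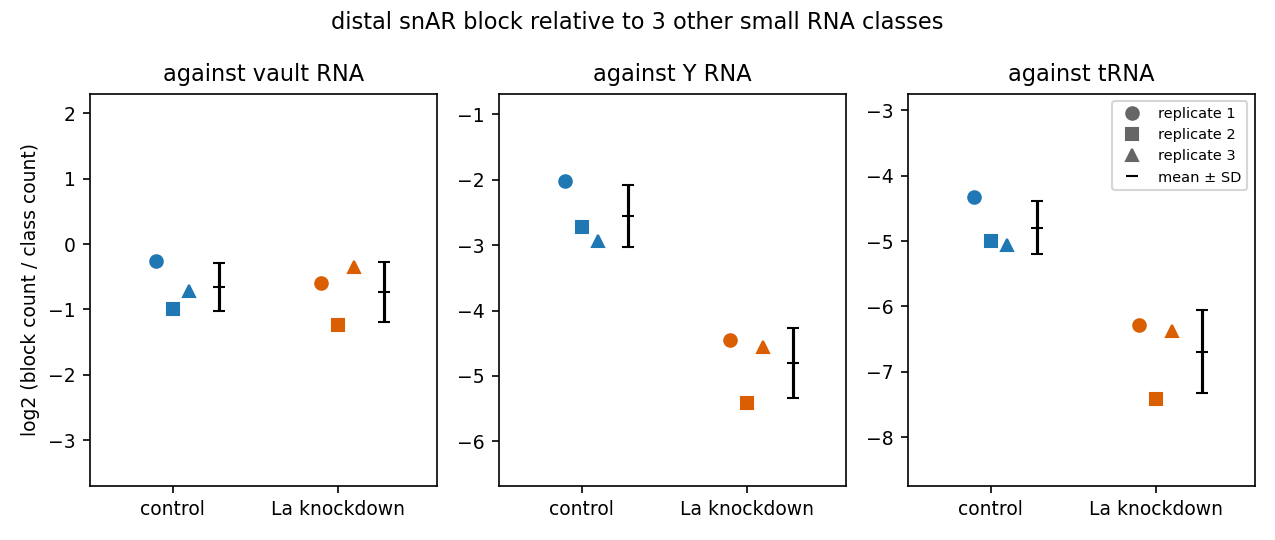
log2 ratio of the summed count of the distal snAR block to that of vault RNA, Y RNA and tRNA windows in each library, with the mean ± SD of each arm (n = 3) beside the points. The axes span the same range but start at different values. The arms overlap against vault RNA and do not overlap against Y RNA and tRNA.

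Across the 6 libraries, the profiles most like that of the distal block were sought among 864 windows of other classes with a mean of at least 20 counts. The 5 highest were 4 tRNA genes and 1 vault RNA. Pearson's r of log2 CPM was 0.995 for TRI-AAT6-1, 0.993 for TRI-AAT5-1, 0.985 for VTRNA1-1, 0.984 for TRN-GTT24-1 and 0.983 for TRY-GTA5-1. The 6 points fall into the 2 arms, so these values describe the libraries. The size of the change differed: VTRNA1-1 had 2661, 1874 and 1797 counts against 494, 377 and 580, with log2 fold change -1.86, while TRI-AAT6-1 had 283, 203 and 233 against 108, 86 and 113, with log2 fold change -0.96 (edgeR adjusted p = 0.0103 and 0.0666). Of the other tRNA windows, TRN-GTT24-1 fell by 1.41 and TRY-GTA5-1 fell by 1.33 (edgeR adjusted p = 0.0375 and 0.0328), and TRI-AAT5-1 stood at -0.93 on the log2 scale (edgeR adjusted p = 0.0841).

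SNAR-G1 and SNAR-G2 lie among the gonadotropin beta genes, whose start-site windows were looked for. None of the 7 gonadotropin and luteinizing hormone beta genes (CGB1, CGB2, CGB3, CGB5, CGB7, CGB8 and LHB) was matched to a protein-coding window. Windows were matched by annotated gene starts, and 51.9% of protein-coding windows had such a start exactly 150 bp into the window. A window placed otherwise could have been missed, so this search does not show that these genes have none.

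**Figure D5:**
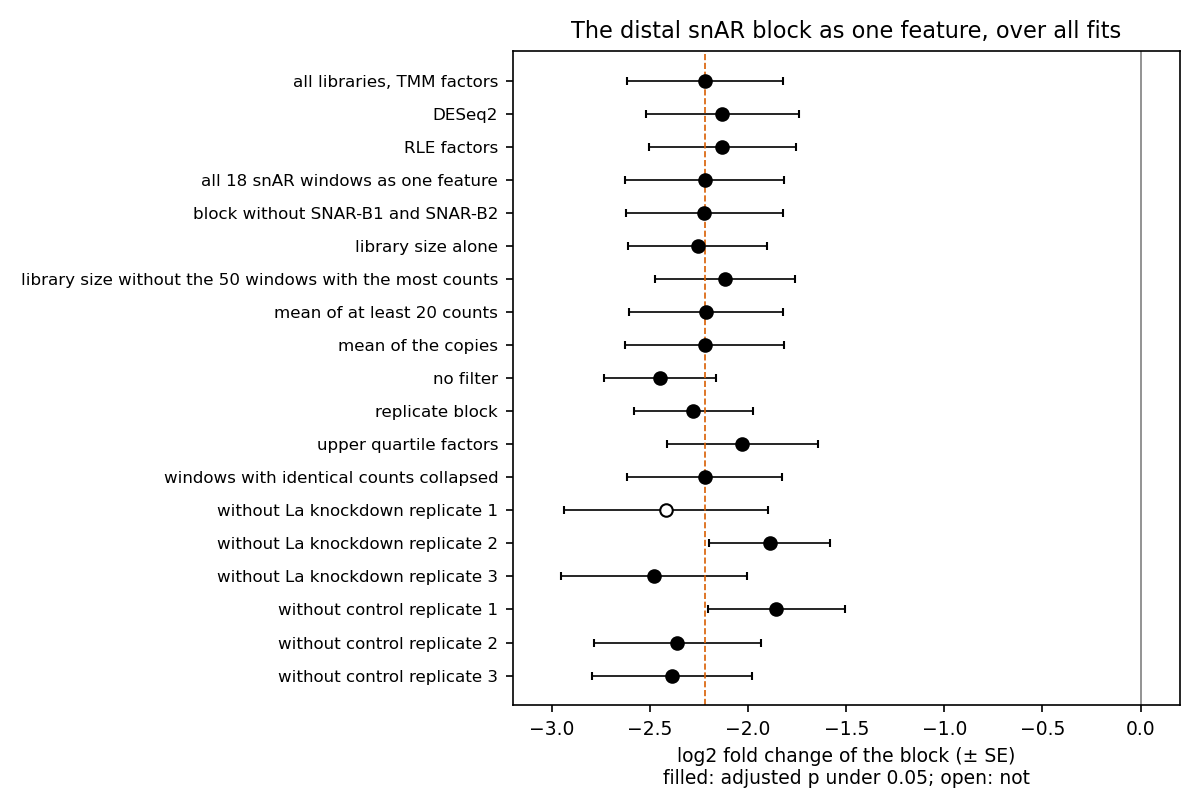
log2 fold change (± SE) of the distal block as 1 feature in the fit with all libraries and TMM factors (top) and in the 18 alternatives. Filled points have an adjusted p under 0.05. All points lie between -2.48 and -1.86, and the single open point is the fit without La knockdown replicate 1.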

How the data were processed

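Small RNA of 6 HEK293T libraries was counted in windows by the authors. Trim Galore, Bowtie2, bedtools and edgeR, and the builds GRCh38 and hg38, are named in the submitters' processing notes, without options; the use of strand was not given in the sources used here. The deposited raw counts are unscaled reads per window, per the file headers. The deposited comparison table gives log2 fold changes, an F score and p-values by the authors, per the file headers. Of protein-coding windows, 51.9% had a GENCODE release 29 start exactly 150 bp into the window; SNAR-A genes lay elsewhere in theirs. snAR genes were named by RefSeq (GRCh38.p14) genes lying wholly inside a window.

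Counts were fitted with edgeR 4.0.16 (R 4.3.3) on all windows that passed filterByExpr, with TMM factors and the arm as the single term. Standard errors came from the fold change and F. The fit was also run on simulated counts, with windows drawn independently at a single dispersion. Copies that share reads were not simulated, so that run says nothing about them. Ratios and shares were tested by exact permutation, two-sided, with 0.5 added to counts for ratios to the block. Alternatives were other scalings, DESeq2 1.42.0, other filters, collapsed identical windows, a replicate block and each library left out. Members outside the block were all named; within it, the 2 windows with the highest and the 2 with the lowest mean count. Members and lists were chosen with earlier results of these data known. Figures used matplotlib 3.10.9. The start-site windows of a list of RNA-binding protein genes are not reported here.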

Additional observations from a re-analysis of the deposited data

How the results depend on the processing

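The number of snAR windows called lower, 13 with all libraries, was between 12 and 16 in the 9 alternatives that kept all libraries. In those fits 0.476% to 8.27% of all windows were called lower. With 1 library left out, the number of snAR windows was between 0 and 14, and 0% to 8.6% of all windows were called lower. The count of 0 came without La knockdown replicate 1. The log2 fold change of the distal block, -2.22, was between -2.45 (no filter) and -2.03 (upper quartile factors) in alternatives that kept all libraries, with an adjusted p of at most 0.0175, and between -2.48 and -1.86 when 1 library was left out. Without La knockdown replicate 1 it was -2.42 with an adjusted p of 0.146. With upper quartile factors the median over all features shifted by 0.15, and relative to that shift the block changed by -2.18. Its values without SNAR-B1 and SNAR-B2 and with all 18 windows as 1 feature, both -2.22, were added after seeing the data. With 1 library left out, the change relative to the block ranged from -0.070 to 0.025 for SNAR-A1, from -0.056 to 0.019 for SNAR-A2, from -0.20 to 0.72 for SNAR-A12 and from -0.14 to 0.98 for SNAR-C3, so their direction was not fixed. That against vault RNA ranged from -0.26 to 0.18. The cause was not tested. Of 254 refits of single windows, 215 kept their direction and side of the threshold, 22 were weaker, 17 stronger and 0 reversed. These refits, like the counts of snAR windows called, include the 9 SNAR-A copies of the distal block. Those copies may share reads, so they are not separate results. A replicate block gave -2.28 for the distal block (edgeR adjusted p = 2.87e-11). It called 16 snAR windows lower, and 8.27% of all windows. Same-numbered libraries correlated in their deviations with r of 0.14, 0.23 and -0.46, and not every library correlated best with its own number. The replicate block thus rests on a pairing that these values do not show. With 3 libraries per arm they cannot exclude it either. At this depth SNAR-G1 could not be compared.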

Other observations

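Between SNAR-A8 and SNAR-A9 of the distal block, 1428 bp from the SNAR-A9 window, lay a window labelled lncRNA (lncRNA_22003, positions 50115680 to 50116079), chosen after its values were seen. It had control counts of 54, 22 and 14 and knockdown counts of 1, 2 and 8, and fell by 2.75 on the log2 scale (SE 0.70, edgeR adjusted p = 0.0472). Its knockdown libraries, at 1.16 ± 1.19 CPM (SD, n = 3), each lay under the level the filter asks for, so it entered the test through the control arm alone. It overlapped no snAR window, and as in the distal block control replicate 1 was the highest library.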
